A study of Mus musculus with 17 samples.

Results

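Medullary thymic epithelial cells of perinatal mice were compared with those of adults in animals without functional Aire. The cells came from C57BL/6 mice carrying Adig, a reporter in which Aire regulatory sequence drives a fusion of Igrp and GFP, on an Aire-knockout (KO) background. From the thymic medulla, cells negative for CD45 and Ly51, high in MHC class II and positive for GFP were sorted on a MoFlo instrument. The adults were 5 weeks old, and the perinates were 3 days old by the sample labels and 0 to 3 days old by the series text. Samples were chosen by their labels: 3 perinate KO GFP+ and 3 adult KO GFP+ samples, 6 of the 17 in the series. A further 6, the 3 perinate and 3 adult GFP+ samples of Aire wild-type (WT) mice with the same reporter, served to set the age difference with Aire beside that without it. Each sample was total RNA, amplified and hybridised to 1 Affymetrix Mouse Gene 1.0 ST array. The labels do not say whether replicates were separate animals or pools, so each p-value measures the spread between samples only. That spread was estimated for each gene over all 17 arrays. These include 3 adult and 2 perinate arrays of GFP-negative WT cells, another cell population, which also entered the filter on dim genes.

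Medullary thymic epithelial cells show developing T cells the proteins of other organs. The transcriptional regulator Aire turns on a large set of tissue-restricted genes in the most mature of them, and T cells that recognise the products are deleted or become regulatory T cells. Around birth the medulla is still expanding, and Aire-positive cells arise from proliferating, basal epithelial precursors that carry keratins Krt5 and Krt14. Later they pass through an Aire-positive stage into keratinised and other specialised states. In a knockout that keeps the reporter, GFP marks the cells in which the Aire locus is active although the protein is missing.

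GFP+ KO cells of both ages carried the transcripts that define mature medullary epithelium. Values are linear probe set intensities, given for arrays 1, 2 and 3 of a group in that order. Aire itself read 4851, 4689 and 5242 in the adult and 4072, 6000 and 5744 in the perinate arrays, and G6pc2, the gene of Igrp, read 8904, 9074 and 9091 in the adult and 7421, 8442 and 8285 in the perinate arrays. Neither differed between ages by limma's moderated test (0.08 ± 0.21, adjusted p = 0.818, and -0.17 ± 0.14, adjusted p = 0.422, as log2 perinate minus adult ± SE with n = 3 and 3). Which part of Aire is deleted is not given in the sources used here, so its signal does not check the genotype. Of 11 defining markers (among them Krt8, Krt18, Epcam, Cd80 and H2-Ab1), all were above the 40th percentile of the KO arrays. Between ages 1, the protease Ctss, was called, where 26.0% of all 13842 genes tested were called. The markers' median was -0.20, and with quantile normalisation 4 of the 11 were called lower in perinates (median -0.30). Array medians ran from 144.5 to 157.1 across the series, and signals below the 40th percentile of an array (96.16 to 112.14) are treated as near background.

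Perinate KO arrays 2 and 3 stood apart from all others at most tested genes tied to sex, although every sample is labelled as mixed. The Y-linked genes Uty and Eif2s3y read 16.14 to 19.24 and 15.74 to 18.68 on those arrays, against 168.9 to 366.2 and 255.4 to 545.3 on the other 15. Kdm5d was lower there too (37.32 to 43.93 against 89.79 to 161.6), but Sry was within the range of the others (164.6 to 193.1 against 143.4 to 252.1). Xist, the RNA of the inactive X chromosome, read 5167 to 5203 on arrays 2 and 3 and 2104 to 4509 elsewhere. Perinate KO array 1 was in the range of the other arrays, so the age comparison was also run with array 1 as the only perinate sample. Adult KO array 3 differed in another way, with the highest signals of the 6 KO arrays for the T cell genes Cd3g (171, 141 and 428 in the adult and 159, 199.7 and 155 in the perinate arrays) and Cd3e (199, 153 and 349 in the adult and 206, 222 and 227 in the perinate arrays) and for the chaperone Hsph1 (1176, 1085 and 4641 in the adult and 388, 715 and 685 in the perinate arrays). The part of these arrays in the results below was not tested beyond leaving them out.

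Markers of other cells were called in every list but that of B cells, and each count is set against the 26.0% called over all genes. Of 12 thymocyte genes on the array, 9 were bright enough to test and 1, Cd4, was called (lower in perinates). The summed thymocyte signal was 1268 to 2471 in adult and 1216 to 1485 in perinate KO arrays, and Ptcra, Rag2 and Dntt stayed below the 40th percentile on all 6. Of 15 dendritic cell and macrophage genes, 12 were tested and 2 called lower (Csf1r and Lyz2), with sums of 6887 to 7178 in adults and 5300 to 5790 in perinates, and Itgax, Itgam, Adgre1, Xcr1, Clec9a and Siglech were below that percentile throughout. Of 4 B cell genes tested 0 were called, and the defining Cd79a, Ms4a1 and Cd22 were near background. Of 11 fibroblast genes 5 were called, with Lum (1.07, adults near background) and Dcn (0.34) higher and Postn (-1.33), Pdgfrb (-0.39) and Col1a1 (-0.31) lower. Their sum was 5584 to 6086 in adults and 5989 to 6379 in perinates. Of 9 endothelial genes tested 1 was called higher (Cdh5) and 1 lower (Esam), with Kdr and Emcn near background. Of 4 erythroid genes tested 1, Epb42, was called lower. Several of these calls depended on single arrays. The call of Cd4 was lost without any 1 of adult arrays 1 and 3 or perinate arrays 1 and 2 (-0.58 to -0.42, adjusted p up to 0.157), and that of Cdh5 without any 1 of adult arrays 2 and 3 or perinate arrays 2 and 3 (0.55 to 0.73, adjusted p up to 0.146). Esam was not called without any 1 of adult array 1 or perinate array 1 (-0.33 to -0.31, adjusted p up to 0.0911), nor Dcn without any 1 of adult arrays 1 and 2 or perinate arrays 1, 2 and 3 (0.31 to 0.35, adjusted p up to 0.0908). Pdgfrb was not called without any 1 of the 6 arrays (-0.45 to -0.26, adjusted p up to 0.215), nor Col1a1 without any 1 of adult arrays 1 and 3 or perinate arrays 1 and 3 (-0.30 to -0.27, adjusted p up to 0.0997). In bulk samples, fewer cells of a type and less RNA per cell cannot be told apart.

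Age altered the KO cells broadly. Of 13842 genes tested with limma, 3601 (26.0%) had an adjusted p under 0.05. They divided into 1850 higher (13.4%) and 1751 lower (12.6%) in perinates, and the median over all genes was -0.01. Differences of at least 2-fold leaned toward lower expression in perinates, with 301 genes lower (2.17%) against 146 higher (1.05%), 447 in all (3.23%). Perinate and adult arrays did not overlap for 6324 tested genes (45.7%; 22.5% higher and 23.2% lower in perinates) and for 3540 of the called ones. Along the first principal component, 68.2% of the variance of the 6 arrays, adults lay at -22.2 to -27.1 and perinates at 22.0 to 28.5. The second (12.2%) set perinate array 1 (19.5) against perinate arrays 2 and 3 (-10.0 and -12.1). With array 1 as the only perinate sample 1876 genes were called (13.6%), 828 higher (5.98%) and 1048 lower (7.57%). In that setting, wherever it is used, the perinate arm has no replicate, and a single sample was assumed to vary like the other groups. Without perinate array 1, 2612 genes were called (18.9%), 1347 higher (9.73%) and 1265 lower (9.14%). Without adult array 3, 2563 were called (18.5%), 1120 higher (8.09%) and 1443 lower (10.4%).

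**Figure D1:**
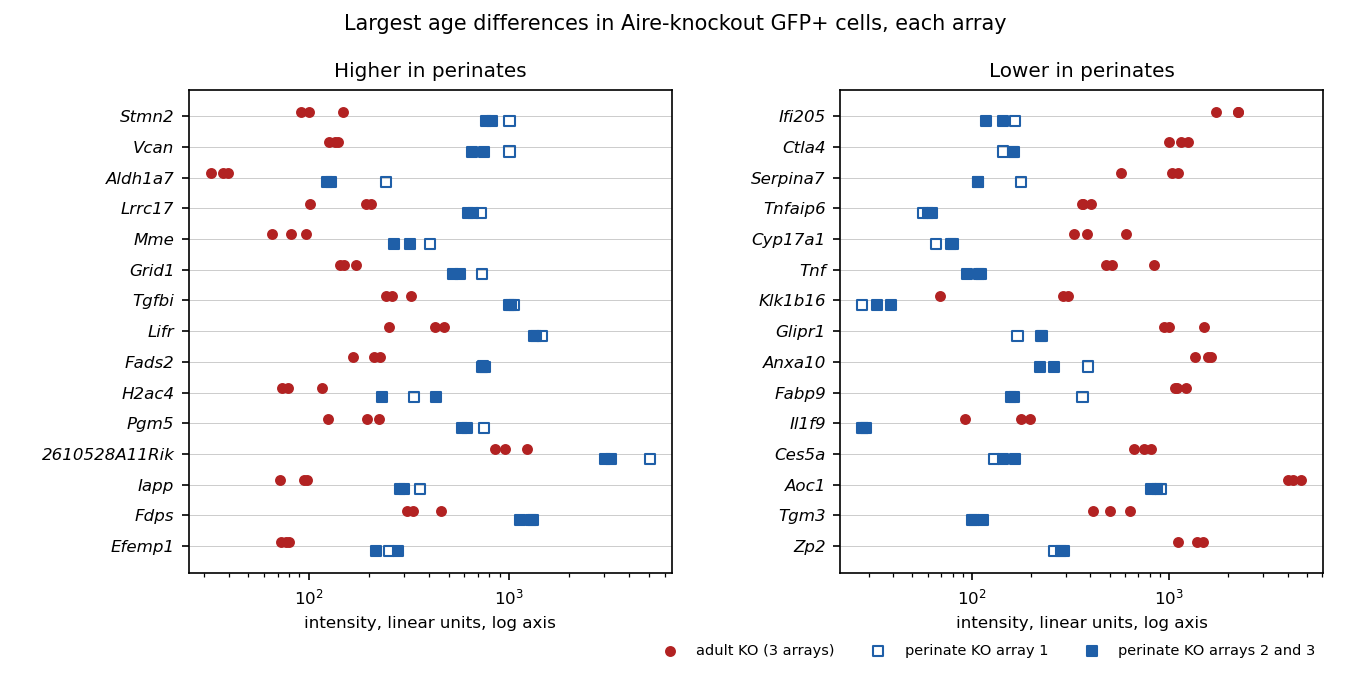
Linear intensity (log axis) of the 15 genes with the largest age difference in each direction, for each KO array: circles are adult arrays, open squares perinate array 1, filled squares perinate arrays 2 and 3. Adult and perinate symbols do not overlap for any gene shown, by the rule that chose them, and perinate array 1 lies on the perinate side throughout.

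Among the 15 transcripts with the largest increases in perinates were those of matrix, surface and cytoskeletal proteins. Stmn2, a microtubule-destabilising protein best known from growing neurites, read 149, 100.5 and 92.1 in the adult and 1008, 826 and 773 in the perinate arrays (log2 difference 2.96 ± 0.23, adjusted p = 3.6e-07), with adult arrays 2 and 3 near background. Vcan, the large matrix proteoglycan versican, read 136, 127 and 140.3 in the adult and 1008, 656 and 752 in the perinate arrays (log2 difference 2.56 ± 0.14, adjusted p = 7.82e-09). Every perinate array exceeded every adult array several times over for both genes. Tgfbi, a matrix protein induced by TGF-beta, read 324, 259.6 and 243 in the adult and 1065, 996 and 1026 in the perinate arrays (log2 difference 1.91 ± 0.22, adjusted p = 1.91e-05). The fibulin Efemp1 read 80.1, 72.6 and 77.4 in the adult and 252, 218 and 280.1 in the perinate arrays (log2 difference 1.70 ± 0.14, adjusted p = 8.36e-07). Mme, the surface peptidase neprilysin, read 82, 96.7 and 65.7 in the adult and 405, 268 and 319 in the perinate arrays (log2 difference 2.02 ± 0.26, adjusted p = 4.9e-05). All 3 adult values of Efemp1 and Mme were near background, so their differences are measured from the array's floor and not from a level. Lifr, the receptor of leukaemia inhibitory factor, read 476, 426 and 252 in the adult and 1466, 1339.7 and 1362 in the perinate arrays (log2 difference 1.90 ± 0.23, adjusted p = 2.88e-05).

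Others in this group include genes with metabolic or signalling roles. Aldh1a7, a cytosolic aldehyde dehydrogenase, rose from 32.5, 39.4 and 37.5 in adults to 243, 129 and 124 in perinates (log2 difference 2.11 ± 0.30, adjusted p = 0.000104), with perinate array 1 well above the other two and all 3 adult values near background. Fads2, a desaturase of polyunsaturated fatty acid synthesis, read 226, 213 and 167 in the adult and 745, 735 and 761 in the perinate arrays (log2 difference 1.90 ± 0.17, adjusted p = 2.02e-06), with almost no spread among perinates. The gene 2610528A11Rik was bright at both ages, at 1232, 850.5 and 958 in the adult and 5044, 3021 and 3234 in the perinate arrays (log2 difference 1.87 ± 0.20, adjusted p = 1.01e-05). Lrrc17 (2.08 ± 0.26), the glutamate receptor subunit Grid1 (1.96 ± 0.24) and the junctional protein Pgm5 (1.87 ± 0.24) completed the set with Iapp, H2ac4 and Fdps, described below with their lists.

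The 15 largest decreases in perinates included several immune transcripts. Ifi205, an interferon-inducible member of the Ifi200 family, read 2227, 2252 and 1726 in the adult and 166, 118 and 144 in the perinate arrays, a 14.5-fold difference (log2 difference -3.86 ± 0.36, adjusted p = 2.83e-06). Ctla4, an inhibitory receptor known from T cells, read 1146, 1246 and 997 in the adult and 144, 163 and 163 in the perinate arrays (log2 difference -2.85 ± 0.23, adjusted p = 7.03e-07). Tnf, the inflammatory cytokine, read 839, 517 and 479 in the adult and 112, 94.9 and 109 in the perinate arrays (log2 difference -2.49 ± 0.30, adjusted p = 2.8e-05). Tnfaip6, a hyaluronan-binding protein induced by it, read 404, 365 and 368 in the adult and 56.6, 60 and 62.6 in the perinate arrays (log2 difference -2.66 ± 0.19, adjusted p = 2.05e-07). Il1f9, an epithelial cytokine of the interleukin-1 family, read 178, 198 and 92.6 in the adult and 28, 29.3 and 28.2 in the perinate arrays (log2 difference -2.38 ± 0.24, adjusted p = 5.45e-06). The perinate values of Tnfaip6 and Il1f9 were all near background, so these differences too are measured from the floor.

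The same 15 included transcripts best known from stomach, adrenal, ovary, testis, epididymis and liver. Aoc1, the histamine-degrading diamine oxidase, read 4675, 4279 and 4004 in the adult and 906, 869 and 808 in the perinate arrays (log2 difference -2.33 ± 0.11, adjusted p = 2.78e-09). Anxa10, an annexin of gastric epithelium, read 1361, 1578 and 1632 in the adult and 387, 261 and 222 in the perinate arrays (log2 difference -2.43 ± 0.21, adjusted p = 1.53e-06). Zp2, an egg coat glycoprotein, read 1488, 1387 and 1118 in the adult and 262, 294 and 282 in the perinate arrays (log2 difference -2.24 ± 0.13, adjusted p = 1.44e-08). Every perinate value lay far below every adult value for these genes. Cyp17a1, a steroid hydroxylase, read 603, 382 and 329 in the adult and 65.8, 78.4 and 80 in the perinate arrays (log2 difference -2.51 ± 0.19, adjusted p = 2.98e-07), with all perinate values near background. Serpina7, the plasma carrier of thyroxine, read 1039.5, 1114 and 574 in the adult and 179, 108 and 108 in the perinate arrays (log2 difference -2.77 ± 0.30, adjusted p = 9.91e-06). Fabp9, a fatty acid-binding protein of sperm, read 1218, 1092 and 1070 in the adult and 365, 159 and 164 in the perinate arrays (log2 difference -2.41 ± 0.43, adjusted p = 0.000825), and with perinate array 1 alone it was not called (-1.62, adjusted p = 0.0819). Ces5a, an epididymal esterase, read 807, 750.2 and 662 in the adult and 129, 166 and 143 in the perinate arrays (log2 difference -2.34 ± 0.15, adjusted p = 4.76e-08). The kallikrein Klk1b16 varied widely within adults, at 309, 292 and 69.4 against 27.9, 38.8 and 33 in perinates (log2 difference -2.48 ± 0.46, adjusted p = 0.000918), and its perinate values and 1 adult value were near background. Tgm3, a transglutaminase of cornified epithelium (-2.27 ± 0.12), and Glipr1 (-2.45 ± 0.25) were also in this group. Ifi205 and Klk1b16 belong to families of near-identical genes, and cross-hybridisation between members was not tested.

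Sterol synthesis genes were higher in perinates almost as a block. Of 17 tested members of a list of sterol and fatty acid synthesis genes, 14 were called higher and 1 lower, where 26.0% of all genes were called, and the list's median was 0.78 against -0.01 over all genes. Farnesyl diphosphate synthase, Fdps, read 456, 334 and 309 in the adult and 1288, 1323 and 1137 in the perinate arrays (log2 difference 1.79 ± 0.18, adjusted p = 5.82e-06). Squalene synthase, Fdft1, read 964, 712 and 758 in the adult and 2509, 2119 and 2069.9 in the perinate arrays (log2 difference 1.47 ± 0.15, adjusted p = 5.64e-06). Hmgcs1, which makes the precursor of mevalonate, read 616, 606 and 572 in the adult and 1861, 1386 and 1354 in the perinate arrays (log2 difference 1.34 ± 0.16, adjusted p = 2.11e-05). Adult and perinate arrays were fully separate for these genes. Insig1, a brake on sterol synthesis that is itself induced when sterols are low, read 388, 376 and 497 in the adult and 1418, 890.4 and 858 in the perinate arrays (log2 difference 1.30 ± 0.21, adjusted p = 0.000291). Lanosterol synthase, Lss, read 298, 250.2 and 266 in the adult and 596, 464 and 508 in the perinate arrays (log2 difference 0.94 ± 0.12, adjusted p = 3.09e-05). The stearoyl-CoA desaturase Scd2 and the citrate lyase Acly were not called (-0.13 ± 0.15 and -0.06 ± 0.11). With perinate array 1 alone 13 members were called, all of them higher.

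Sterol genes are classically controlled through SREBP proteins, which bind sterol regulatory elements near the start site, often beside CCAAT boxes bound by NF-Y. The Hmgcs1 window is shown because it holds both letter patterns in 1 of the 5 list members with the largest differences. It is the 250 bases upstream of the RefSeq start (GRCm38.p6, chr13:119690101-119690350, plus strand), printed 5′ to 3′, with matches to TCACNCCAC and to CCAAT on either strand in capitals.
Hmgcs1: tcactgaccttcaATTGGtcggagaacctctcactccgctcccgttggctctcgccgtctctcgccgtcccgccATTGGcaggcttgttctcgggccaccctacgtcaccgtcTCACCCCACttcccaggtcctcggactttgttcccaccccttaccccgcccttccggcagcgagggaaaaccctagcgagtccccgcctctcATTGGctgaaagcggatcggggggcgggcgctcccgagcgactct
The TCACNCCAC match spans bases 137 to 129 before the start. Of 12 list members with such a window, 1 held TCACNCCAC and 9 (75.0%) held CCAAT, against 1.04% and 34.5% of all 27025 windows. A match is a description of letters, not of a bound site.

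Genes of cell division were higher in perinates in most members, where 13.4% of all genes were higher. In a mitosis and G2/M list 18 of 24 tested genes were called higher and 0 lower, with a median of 0.57. In a DNA replication and S phase list 18 of 25 were called higher and 0 lower, with a median of 0.58. Mki67, the nuclear antigen of cycling cells, read 1044, 1235 and 960.3 in the adult and 2052, 1833 and 1890.5 in the perinate arrays (log2 difference 0.84 ± 0.14, adjusted p = 0.000497). Ccnb2, a B-type cyclin of mitotic entry, read 1809, 1459 and 1266 in the adult and 2915, 2549 and 2597 in the perinate arrays (log2 difference 0.84 ± 0.19, adjusted p = 0.00393). The kinesin Cenpe read 261, 279.8 and 223 in the adult and 471, 422 and 443 in the perinate arrays (log2 difference 0.81 ± 0.13, adjusted p = 0.000278). Aurkb, the kinase that corrects chromosome attachment, read 686, 711 and 539 in the adult and 1177, 1154 and 1019 in the perinate arrays (log2 difference 0.80 ± 0.14, adjusted p = 0.000515). For each, the lowest perinate array lay above the highest adult array. Plk1, another mitotic kinase, read 740.5, 727 and 506 in the adult and 1261, 1095 and 1172 in the perinate arrays (log2 difference 0.86 ± 0.23, adjusted p = 0.0124). Its call was lost without adult array 3 (0.68, adjusted p = 0.0688). Cdk1 (0.22 ± 0.16), Top2a (0.53 ± 0.21) and Tpx2 (0.42 ± 0.17) were not called.

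Replication genes gave the same picture. Ccne2, a cyclin of S phase entry, read 155, 207 and 177 in the adult and 317, 348 and 378 in the perinate arrays (log2 difference 0.96 ± 0.18, adjusted p = 0.00125). Mcm5, a subunit of the replicative helicase, read 475, 422 and 421 in the adult and 938, 793 and 731 in the perinate arrays (log2 difference 0.90 ± 0.14, adjusted p = 0.000184). Its partner Mcm2 read 427, 358 and 349 in the adult and 621, 662 and 636 in the perinate arrays (log2 difference 0.76 ± 0.15, adjusted p = 0.00124). Both separated the ages on every array. Rrm2, the small subunit of ribonucleotide reductase, read 709, 680 and 634 in the adult and 1268, 1150 and 1105 in the perinate arrays (log2 difference 0.80 ± 0.16, adjusted p = 0.00181). Uhrf1, which maintains DNA methylation at replication, read 641, 476 and 457 in the adult and 955, 831 and 1052 in the perinate arrays (log2 difference 0.86 ± 0.19, adjusted p = 0.00387). Pcna, the polymerase clamp, was not called (0.22 ± 0.15). Among 15 cyclins, inhibitors and related genes, E2f1 (0.83 ± 0.16) and Cdk4 (0.56 ± 0.13) were called higher, and Cdkn2c, an inhibitor of Cdk4 and Cdk6, was lower at 266, 313 and 257 against 618, 567 and 569 (log2 difference -1.07 ± 0.13, adjusted p = 2.11e-05). Cdk6, also called higher, lost its call without any 1 of the 6 arrays (0.32 to 0.40, adjusted p up to 0.124). These lists depended on which arrays entered. Without adult array 3 the mitosis calls went from 18 to 7 and the replication calls to 13. Without perinate array 1 they were 11 and 15, and with it as the only perinate array 9 and 11, in every case all higher.

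Replication-dependent histone genes, transcribed in S phase from clusters on chromosomes 13 and 3, were higher in 8 of 12 tested members and lower in 1. Their median was 0.79, and over all genes 13.4% were higher and 12.6% lower. H2ac4 read 116, 78.6 and 73.6 in the adult and 336, 232 and 431 in the perinate arrays (log2 difference 1.88 ± 0.36, adjusted p = 0.00136), the linker histone gene H1f1 read 504, 596 and 428 in the adult and 1256, 1316 and 1152 in the perinate arrays (log2 difference 1.30 ± 0.20, adjusted p = 0.000226) and H2bc3 read 895, 1012 and 592 in the adult and 2025, 1432 and 1631 in the perinate arrays (log2 difference 1.05 ± 0.23, adjusted p = 0.00336). All perinate arrays exceeded all adult arrays for these. H2bc14 (1.01 ± 0.19) and H1f5 (0.87 ± 0.23) were called too, the latter not without any 1 of adult array 3 or perinate array 1 (0.70 to 0.78, adjusted p up to 0.0648). H1f2 read 879, 892 and 718 in the adult and 783, 478 and 423 in the perinate arrays and was not called (-0.61 ± 0.23, adjusted p = 0.0569). Histone genes are close copies, and sharing of probes between them was not tested.

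Promoters of these lists are shown because their members were higher together. Each is the 250 bases upstream of the RefSeq start in GRCm38.p6, on the strand of the gene: Ccnb2 at chr9:70421555-70421804, minus strand, Mki67 at chr7:135716380-135716629, minus strand, Mcm5 at chr8:75109259-75109508, plus strand, H2ac4 at chr13:23750838-23751087, plus strand and H1f1 at chr13:23763418-23763667, plus strand. Capitals mark CCAAT on either strand (ATTGG where it lies on the other) in all of them. In Ccnb2 and Mki67 they also mark TTTGAA, the core of the cell cycle homology region, and in the histone genes TATAAA. In Mcm5 they also mark TTTGGCGC, an E2F-type site, which lies on the other strand and so reads GCGCCAAA.
Ccnb2: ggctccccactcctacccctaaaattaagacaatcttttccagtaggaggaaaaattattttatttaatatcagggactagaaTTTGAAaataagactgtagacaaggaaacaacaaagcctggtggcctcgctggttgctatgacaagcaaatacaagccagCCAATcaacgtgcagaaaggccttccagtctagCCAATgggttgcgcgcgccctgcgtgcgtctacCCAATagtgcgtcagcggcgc
Mki67: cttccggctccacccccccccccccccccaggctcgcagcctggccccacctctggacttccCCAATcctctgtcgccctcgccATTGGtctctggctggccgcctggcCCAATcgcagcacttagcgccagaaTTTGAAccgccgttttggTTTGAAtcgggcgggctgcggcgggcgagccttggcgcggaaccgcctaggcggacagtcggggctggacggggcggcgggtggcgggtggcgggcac
Mcm5: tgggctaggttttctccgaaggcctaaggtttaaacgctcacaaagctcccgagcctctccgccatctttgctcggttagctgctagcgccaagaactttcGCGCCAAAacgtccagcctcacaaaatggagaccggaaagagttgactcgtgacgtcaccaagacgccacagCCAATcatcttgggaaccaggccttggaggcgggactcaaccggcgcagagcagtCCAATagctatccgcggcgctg
H2ac4: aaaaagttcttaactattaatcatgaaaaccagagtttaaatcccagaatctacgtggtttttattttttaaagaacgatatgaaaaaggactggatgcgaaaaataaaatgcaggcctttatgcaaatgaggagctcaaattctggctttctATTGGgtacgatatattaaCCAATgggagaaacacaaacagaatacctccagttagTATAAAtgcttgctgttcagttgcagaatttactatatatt
H1f1: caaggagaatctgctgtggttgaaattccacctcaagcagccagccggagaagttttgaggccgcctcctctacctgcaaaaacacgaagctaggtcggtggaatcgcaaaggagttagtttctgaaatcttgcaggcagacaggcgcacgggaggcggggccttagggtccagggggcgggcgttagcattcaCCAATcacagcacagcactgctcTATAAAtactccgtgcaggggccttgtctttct
CCAAT occurred in 15 of 19 mitosis windows (78.9%), 14 of 21 replication windows (66.7%) and 10 of 11 histone windows (90.9%), against 34.5% of all windows. TTTGAA was in 8 mitosis windows (42.1%), 6 histone windows (54.5%) and 3 replication windows (14.3%), against 16.3% of all. TTTGGCGC was in 3 replication windows (14.3%) against 0.437%, and TATAAA in 7 histone windows (63.6%) against 13%. Matches to different motifs did not overlap in the windows printed. A match gives letters in this window and says nothing of binding.

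**Figure D2:**
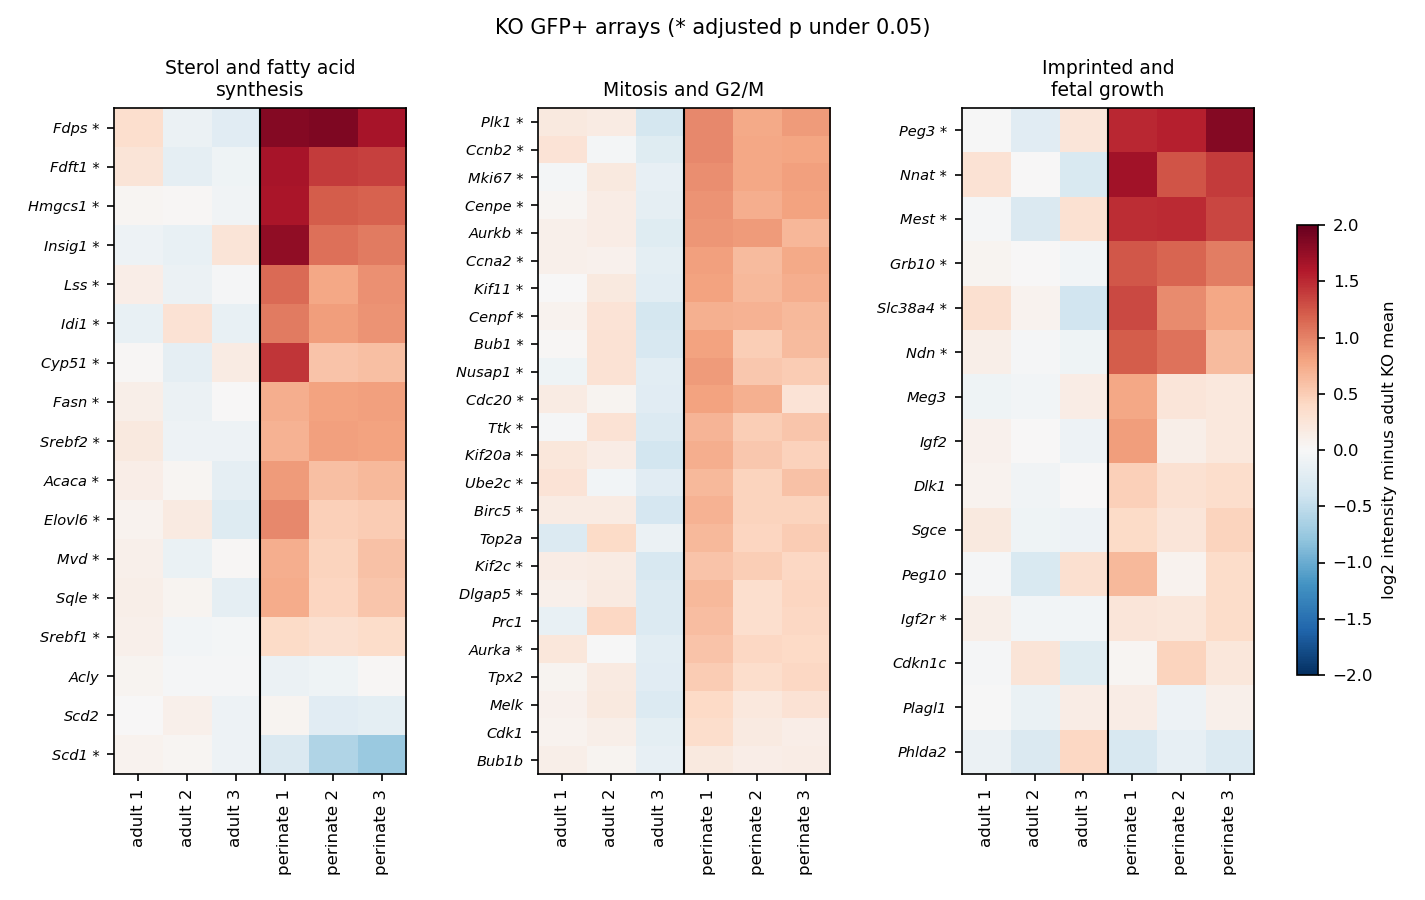
Log2 intensity of each KO array minus the mean of the 3 adult KO arrays, for all tested members of the sterol and fatty acid, mitosis, and imprinted gene lists; asterisks mark genes with an adjusted p under 0.05. The 3 perinate columns are red for most rows, and adult array 3 is the bluest adult column across most mitosis genes.

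Imprinted growth genes, expressed from 1 parental chromosome, were higher in perinates in 7 of 15 tested members and lower in 0 (median 0.39), and the same count was reached with perinate array 1 alone. Peg3, a paternally expressed zinc finger gene, read 180.3, 155 and 216 in the adult and 518, 536 and 647 in the perinate arrays (log2 difference 1.63 ± 0.13, adjusted p = 4.8e-07). Nnat, a small membrane proteolipid, read 295, 241 and 195 in the adult and 766, 575 and 637 in the perinate arrays (log2 difference 1.45 ± 0.17, adjusted p = 1.91e-05). Mest read 86.3, 71.6 and 108 in the adult and 242, 245 and 221 in the perinate arrays (log2 difference 1.43 ± 0.18, adjusted p = 3.18e-05). Grb10, an adaptor that restrains insulin and IGF receptor signalling, read 597, 573 and 549 in the adult and 1354, 1289.5 and 1160.5 in the perinate arrays (log2 difference 1.14 ± 0.12, adjusted p = 9.93e-06). The amino acid transporter Slc38a4 read 156, 131 and 95.4 in the adult and 313, 241 and 213 in the perinate arrays (log2 difference 1.01 ± 0.24, adjusted p = 0.00565). For all of these the lowest perinate array lay above the highest adult array. Dlk1 (0.38 ± 0.16) and Plagl1 (0.05 ± 0.16) were not called. The list's count stands beside 13.4% of all genes called higher.

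In the oncofetal list of fetal RNA-binding and related genes 3 of 9 tested genes were higher and 0 lower: Igf2bp3, an mRNA-binding protein of the embryo (116, 86.6 and 94.1 against 53.8, 49.2 and 48.4, all but 1 near background, log2 difference 0.96 ± 0.14, adjusted p = 0.000103), the glypican Gpc3 (0.74 ± 0.18) and Plagl2 (0.54 ± 0.18). The call of Plagl2 was lost without any 1 of adult arrays 2 and 3 or perinate arrays 1, 2 and 3 (0.48 to 0.59, adjusted p up to 0.111). The list's median was -0.11. Beside this list and the next, 26.0% of all genes were called, 13.4% higher and 12.6% lower. In the IGF and growth hormone list 5 of 14 were higher and 3 lower, and without adult array 1 only 1 was lower. Igfbp4, a secreted IGF-binding protein, read 278, 259 and 183 in the adult and 569.7, 531 and 564 in the perinate arrays (log2 difference 1.23 ± 0.17, adjusted p = 0.000102). Igf1, the growth factor that growth hormone induces, went the other way, at 569, 485 and 522 in the adult and 293, 225 and 229.5 in the perinate arrays (log2 difference -1.08 ± 0.16, adjusted p = 0.000177). Irs1 (0.82 ± 0.15, adults near background) and Igfbp2 (0.72 ± 0.13) were higher, and Igfbp7 was lower (-0.82 ± 0.22), although not without any 1 of adult arrays 1 and 3 or perinate array 1 (-0.68 to -0.66, adjusted p up to 0.0668).

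Markers of basal, immature medullary epithelium were higher in perinates in 9 of 17 tested genes and lower in 0, with a median of 0.53. Over all genes 13.4% were higher. Besides Lifr, Krt5, the basal keratin, read 1744, 1854 and 904 in the adult and 4012, 3761 and 2933 in the perinate arrays (log2 difference 1.31 ± 0.31, adjusted p = 0.00541), with adult array 3 far below its partners. Pdpn, the surface glycoprotein podoplanin of junctional medullary cells, read 433, 349.8 and 276 in the adult and 1064, 664 and 665 in the perinate arrays (log2 difference 1.16 ± 0.23, adjusted p = 0.00146). Bcl11a, a transcription factor, read 219, 228 and 198 in the adult and 369, 439 and 464 in the perinate arrays (log2 difference 0.97 ± 0.14, adjusted p = 0.000123). Itgb4, the hemidesmosome integrin chain, read 1036, 883 and 882 in the adult and 1765, 1654 and 1633 in the perinate arrays (log2 difference 0.85 ± 0.20, adjusted p = 0.00487). All 3 perinate arrays were above all adult arrays for each. Krt17, Itga6 and Tnfrsf11b were not called (0.21 ± 0.13, -0.23 ± 0.11 and 0.14 ± 0.16). The count was 6 higher with perinate array 1 alone, 6 without it, and 5 without adult array 3.

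Late epithelial markers were called at shares not far from the 26.0% of all genes. In the late medullary list 4 of 14 were lower and 1 higher (median -0.33), and in the keratinisation list 4 of 17 were lower and 0 higher (median -0.20), where 12.6% of all genes were lower. On all adult KO arrays 3 of the 14 and 7 of the 17 were near background, a level from which a decrease could hardly register. Elf3, an epithelial differentiation factor, read 830.5, 564 and 639 in the adult and 394, 352 and 396 in the perinate arrays (log2 difference -0.82 ± 0.19, adjusted p = 0.00532). The suprabasal keratin Krt10 read 242, 242 and 137 in the adult and 121, 114 and 100.2 in the perinate arrays (log2 difference -0.85 ± 0.19, adjusted p = 0.00441). Spink5, an inhibitor of epidermal proteases, read 336, 397 and 145 in the adult and 149.7, 58.8 and 63.5 in the perinate arrays, where perinate array 1 overlapped adult array 3 (log2 difference -1.70 ± 0.39, adjusted p = 0.00437). Pigr, the receptor that carries IgA across epithelium (-0.93 ± 0.26, perinates near background), lost its call without any 1 of adult arrays 1 and 2 or perinate array 2 (-0.87 to -0.78, adjusted p up to 0.0637). Tgm1, a cornified envelope enzyme, was higher (0.74 ± 0.24), although not without any 1 of adult arrays 2 and 3 or perinate array 1 (0.56 to 0.70, adjusted p up to 0.14). Muc1 and Lypd8, both of mature epithelium, were not called (-0.59 ± 0.23 and -0.33 ± 0.18). With perinate array 1 alone 0 members of the late list were called lower and 1 higher. In the keratinisation list that setting called 1 lower and 2 higher. Among 22 junction genes 3 were higher, led by the desmosomal cadherin Dsc2 (0.73 ± 0.15), and 3 lower, led by the plakophilin Pkp2 (-0.90 ± 0.22). The count of calls is close to the 26.0% over all genes, but the median of the junction genes was -0.31. Arrays did not overlap for 11 of the 22 lower and 4 higher in perinates, against 23.2% and 22.5% of all genes. Only 1 was called higher without any 1 of adult arrays 2 and 3 and perinate array 1. F11r, a tight junction adhesion molecule, read 1905, 2242 and 1948 in the adult and 1270.4, 1142 and 1289 in the perinate arrays (log2 difference -0.72 ± 0.14, adjusted p = 0.00171).

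Developmental signalling genes were called higher in 8 of 34 members and lower in 3 (median 0.23). Over all genes 26.0% were called, 13.4% higher and 12.6% lower. Without adult array 3 only 1 member was lower, and without perinate array 1, 0 were. Fgfr2, the epithelial receptor of keratinocyte growth factors, read 205, 184 and 123 in the adult and 576, 472 and 510.4 in the perinate arrays (log2 difference 1.64 ± 0.22, adjusted p = 6.63e-05). Gli3, a transcription factor of Hedgehog signalling, read 213, 198 and 146 in the adult and 450.4, 351 and 403 in the perinate arrays (log2 difference 1.12 ± 0.20, adjusted p = 0.000749). Both were separate between ages on every array. Jag2, a Notch ligand (0.85 ± 0.22), lost its call without adult array 3 (0.66, adjusted p = 0.0566). Hes6 (0.80 ± 0.22) lost its call without adult array 3 (0.58, adjusted p = 0.0807), and Id1, a target of BMP signalling (0.83 ± 0.25), without any 1 of adult array 2 or perinate array 1 (0.57 to 0.79, adjusted p up to 0.112). Of 22 collagen and basement membrane genes 6 were higher and 1 lower (median 0.02), beside the same shares over all genes. The calls of both lists leaned toward higher expression in perinates. Col12a1 read 749, 715 and 517 in the adult and 1504, 1322 and 1454 in the perinate arrays (log2 difference 1.13 ± 0.16, adjusted p = 0.000111). Fibronectin, Fn1, read 576, 506 and 671 in the adult and 976, 841 and 920.3 in the perinate arrays (log2 difference 0.65 ± 0.13, adjusted p = 0.00201). The basement membrane chains Col4a2 (0.62 ± 0.11) and Col4a1 (0.52 ± 0.11) were higher too.

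**Figure D3:**
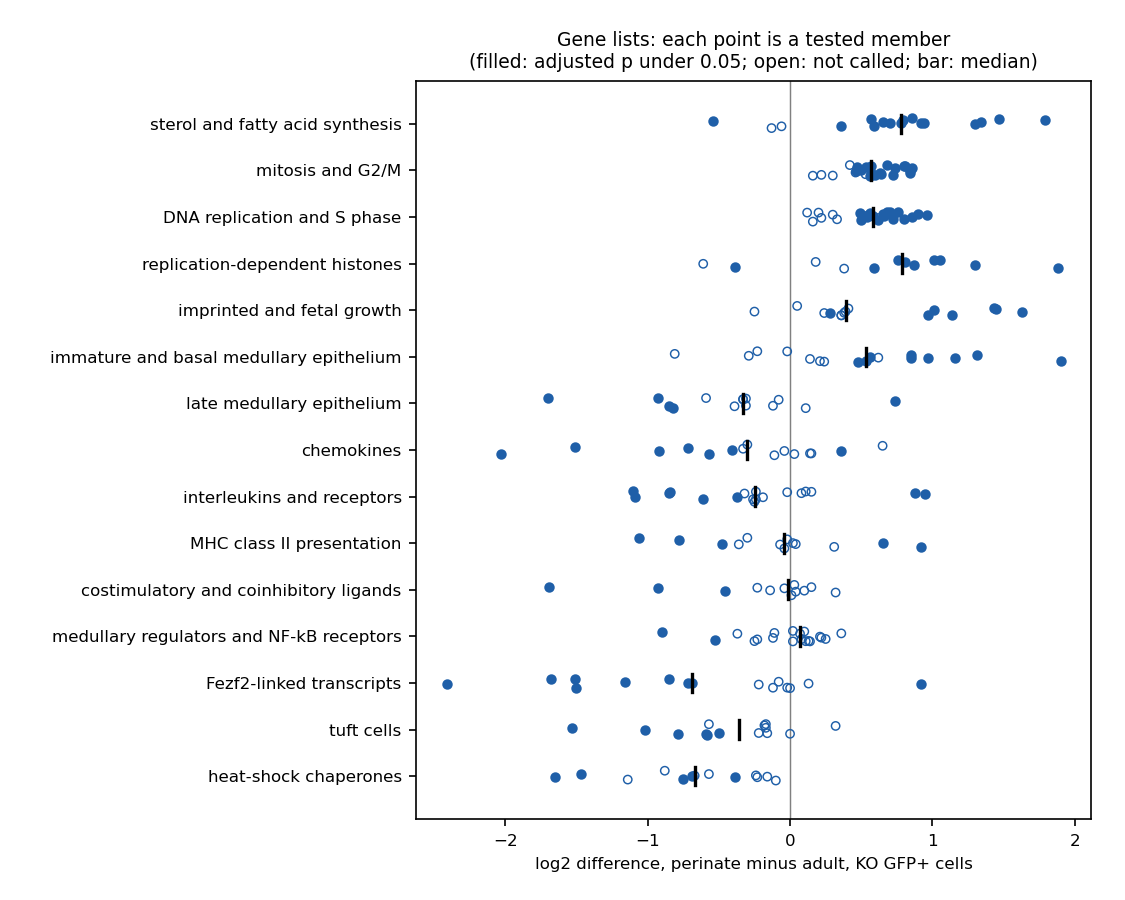
Log2 difference between perinate and adult KO GFP+ cells for each tested member of 15 gene lists; filled points passed an adjusted p of 0.05, open points did not, and bars are medians. The medians of the sterol, mitosis, replication, histone, imprinted and basal lists lie to the right of 0, and those of the Fezf2-linked, heat-shock and tuft lists to the left.

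MHC class II presentation differed in single genes rather than as a class. In the MHC class II list 2 of 13 were higher and 3 lower, with a median of -0.04, and Cd74, H2-Ab1 and H2-Aa were not called (0.04 ± 0.08, -0.07 ± 0.08 and 0.02 ± 0.09). H2-Ob, a subunit of the DO molecule that restrains peptide loading, read 2032, 2046 and 2253 in the adult and 802, 1196 and 1084 in the perinate arrays (log2 difference -1.06 ± 0.16, adjusted p = 0.00024). Lysosomal proteases were called in opposite directions. Ctss, which degrades the invariant chain in antigen-presenting cells, read 1565, 1825 and 1542 in the adult and 866, 1044 and 965 in the perinate arrays (log2 difference -0.78 ± 0.16, adjusted p = 0.00258). Ctsl, which does so in cortical epithelium, read 2044, 2121 and 1453 in the adult and 4072, 3519 and 2968 in the perinate arrays (log2 difference 0.92 ± 0.23, adjusted p = 0.00843). Ifi30, the lysosomal thiol reductase, read 4799, 4338 and 4779 in the adult and 7139.9, 7764 and 6968 in the perinate arrays (log2 difference 0.65 ± 0.11, adjusted p = 0.000378). Among 14 MHC class I and immunoproteasome genes 0 were higher and 2 lower, H2-Q4 (-0.53 ± 0.09) and the peptide transporter chain Tap2 (-0.43 ± 0.10). Over all genes 12.6% were lower and 13.4% higher. The class I median was -0.14, and arrays did not overlap for 6 members, all lower in perinates (23.2% of all genes). Their summed signal was 40830 to 42320 in adult and 37530 to 38230 in perinate KO arrays. Quantile normalisation called 4 lower, and in WT 6 were lower (median -0.29). The summed signal of dendritic cell and macrophage genes, given above, was also lower on every perinate array than on every adult array. Its part in these differences, and in those of the ligands, chemokines and interleukins below, was not tested.

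Costimulatory ligands were lower in 3 of 12 genes and higher in 0, about the 26.0% of all genes called in either direction (12.6% lower). Tnfsf9, a ligand that costimulates T cells, read 1527, 1023 and 1609 in the adult and 596, 346 and 359.7 in the perinate arrays (log2 difference -1.69 ± 0.32, adjusted p = 0.00123). Cd70, another ligand of this kind, read 546, 458 and 508 in the adult and 199.6, 297 and 312 in the perinate arrays (log2 difference -0.93 ± 0.16, adjusted p = 0.000704). Tnfrsf14 was lower as well (-0.46 ± 0.13), although not without perinate array 1 (-0.38, adjusted p = 0.0821). Icosl, Cd80 and Cd40 were not called (0.04 ± 0.13, -0.14 ± 0.16 and 0.10 ± 0.11).

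Chemokines were lower in 6 of 15 genes and higher in 1 (median -0.30), where 12.6% of all genes were lower and 13.4% higher. Ccl20, which attracts lymphocytes and dendritic cells, read 854, 1346 and 525 in the adult and 373, 167 and 143 in the perinate arrays (log2 difference -2.03 ± 0.33, adjusted p = 0.00038). Cxcl13, a B cell attractant, read 552, 605 and 319 in the adult and 244, 133 and 142 in the perinate arrays (log2 difference -1.51 ± 0.27, adjusted p = 0.000687). Perinate array 1 was the highest perinate array for both. Ccl25, which draws T cell progenitors into the thymus, read 5941, 6590.4 and 5969.8 in the adult and 2668, 4379.6 and 4467 in the perinate arrays (log2 difference -0.72 ± 0.18, adjusted p = 0.00663). Ccl2 read 377, 281 and 209 in the adult and 154, 158 and 135 in the perinate arrays (log2 difference -0.92 ± 0.21, adjusted p = 0.00459). Ccl17 (-0.57 ± 0.20) lost its call without any 1 of adult arrays 1 and 3 or perinate arrays 2 and 3 (-0.59 to -0.44, adjusted p up to 0.173). With perinate array 1 alone 2 chemokines were called lower and 1 higher.

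Interleukins and their receptors were lower in 6 of 18 genes and higher in 2, where 12.6% of all genes were lower and 13.4% higher. Il23a, a subunit of a cytokine that steers T helper responses, read 1655, 1462 and 1598 in the adult and 645, 812 and 756 in the perinate arrays (log2 difference -1.10 ± 0.20, adjusted p = 0.00088). Il12a, a subunit of a related cytokine, read 1119.6, 788 and 889 in the adult and 631, 444 and 476 in the perinate arrays (log2 difference -0.85 ± 0.17, adjusted p = 0.00158). Il7, the survival factor of thymocytes, was higher, at 266, 351 and 267 in the adult and 506, 534 and 666 in the perinate arrays (log2 difference 0.95 ± 0.19, adjusted p = 0.00157). So was Il6st, the shared receptor chain gp130 that pairs with Lifr (1359.7, 1080.5 and 1052 against 747, 589 and 564, log2 difference 0.88 ± 0.17, adjusted p = 0.00121). In the interferon list 1 of 20 genes was higher and 1 lower, a smaller share than the 26.0% of all genes. Ifit1, an inhibitor of viral translation, read 1233, 1259.8 and 1150.1 in the adult and 367, 430.3 and 471 in the perinate arrays (log2 difference -1.53 ± 0.19, adjusted p = 4.28e-05). Ddx58, the RNA sensor RIG-I (0.76 ± 0.21), lost its call without any 1 of adult array 3 or perinate array 1 (0.61 to 0.72, adjusted p up to 0.0782). Usp18, Oasl2 and Isg20 were not called (-0.47 ± 0.22, -0.24 ± 0.21 and -0.32 ± 0.16).

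The regulators of medullary identity hardly separated the ages. Of 19 tested regulators and NF-kB receptors 0 were higher and 2 lower (median 0.07), where 26.0% of all genes were called and 12.6% were lower. Leaving out any 1 of the 6 arrays left 1 regulator lower. Irf8, an interferon regulatory factor of myeloid development, read 3855, 3271 and 3004 in the adult and 1367, 2049.9 and 2077 in the perinate arrays (log2 difference -0.90 ± 0.17, adjusted p = 0.00117). The second, the epithelial factor Ehf (-0.53 ± 0.18), lost its call without any 1 of the 6 arrays (-0.60 to -0.48, adjusted p up to 0.121). Fezf2, a regulator of tissue antigens, read 4034, 3594 and 3371 in the adult and 2609, 3879.8 and 3786 in the perinate arrays and was not called (-0.12 ± 0.16). Spib, a factor that limits medullary maturation, read 2623, 2302 and 2667 in the adult and 3253, 3129 and 3358 in the perinate arrays and was not called either (0.36 ± 0.14). Of 20 proteins that assist Aire in transcription 3 were called higher and 1 lower (median 0.17), below the 26.0% of all genes called. Arrays did not overlap, however, for 10 of the 20 higher and 2 lower in perinates, against 22.5% and 23.2% of all genes. Without any 1 of adult arrays 1 and 3 and perinate array 3, 1 of the 20 was called higher. The nucleolar protein Mybbp1a was among the higher (0.61 ± 0.14). The deacetylase Sirt1 was lower, at 3683, 4814 and 4410.5 in the adult and 1880.3, 2973 and 2862 in the perinate arrays (log2 difference -0.76 ± 0.24, adjusted p = 0.026), and was not called without any 1 of adult arrays 2 and 3 or perinate array 1 (-0.74 to -0.55, adjusted p up to 0.132). Among 14 cortical epithelial genes 3 were higher and 2 lower, where 13.4% of all genes were higher and 12.6% lower. Pax1 (0.83 ± 0.13) was higher and the endocytic receptor Ly75 lower (-1.13 ± 0.13).

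Transcripts of tuft cells, chemosensory cells that the adult medulla contains, were lower in 6 of 14 genes and higher in 0 (median -0.36). Over all genes 26.0% were called and 12.6% were lower. The count was 2 without adult array 1 and 3 without adult array 2, perinate array 2 or perinate array 3. Plcb2, the phospholipase of taste transduction, read 176, 163 and 149 in the adult and 84, 90.7 and 67.2 in the perinate arrays (log2 difference -1.02 ± 0.20, adjusted p = 0.00169). Trpm5, its ion channel, read 129, 105 and 81.3 in the adult and 53, 57.4 and 69.8 in the perinate arrays (log2 difference -0.79 ± 0.22, adjusted p = 0.0138). The call of Trpm5 was lost without any 1 of adult array 1 or perinate array 1 (-0.70 to -0.63, adjusted p up to 0.0669). Ltc4s, the leukotriene synthase (-0.59 ± 0.12), was lower as well. Pou2f3, the tuft cell master regulator, was not called (404, 257 and 186 in the adult and 285, 261 and 257 in the perinate arrays, -0.00 ± 0.21), and most perinate values of the called genes were near background. With perinate array 1 alone 2 of the 14 were called. Of 17 lineage factors of specialised thymic cells, Pou2f3 among them, Hnf4g, an enterocyte factor, was lower (397, 415 and 389.5 in the adult and 185, 186 and 184 in the perinate arrays, log2 difference -1.11 ± 0.19, adjusted p = 0.000545), and Foxa1 higher (0.53 ± 0.19). Foxa1 was not called without any 1 of adult arrays 2 and 3 or perinate arrays 1 and 2 (0.39 to 0.55, adjusted p up to 0.203).

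In a list of Fezf2, which acts apart from Aire, and genes linked to it, 8 of 15 were lower in perinates and 1 higher (median -0.69). On all adult KO arrays 2 of the 15 were near background. In the KO 12.6% of all genes were lower. In WT cells, where 22.2% of all genes were called between ages, 12 of these 15 were lower and 1 higher (median -0.82). Resp18, of neuroendocrine cells, read 511, 430.4 and 309 in the adult and 122, 121 and 140.1 in the perinate arrays (log2 difference -1.68 ± 0.18, adjusted p = 8.58e-06, and in WT -2.32 ± 0.18, adjusted p = 7.37e-07). Apoc3, an apolipoprotein, read 531, 460.3 and 271 in the adult and 150.2, 143 and 136 in the perinate arrays (log2 difference -1.50 ± 0.21, adjusted p = 0.000115, WT -1.57 ± 0.21, adjusted p = 0.000109). Grap, a signalling adaptor, read 1491, 1203 and 1302 in the adult and 488, 643 and 669.9 in the perinate arrays (log2 difference -1.16 ± 0.14, adjusted p = 2.82e-05, WT -1.54 ± 0.14, adjusted p = 3.6e-06). Maoa, the amine oxidase, read 604, 913 and 783 in the adult and 195, 332 and 292 in the perinate arrays (log2 difference -1.51 ± 0.21, adjusted p = 0.00011, WT -0.86 ± 0.21, adjusted p = 0.00895). The ages were separate on all KO arrays for these genes, and with Fabp9 they are the 5 with the largest differences. Fezf2 itself was called lower in WT (-0.58 ± 0.16, adjusted p = 0.0147) and not in KO cells, although its WT call was lost without any 1 of adult WT arrays 7 and 8 or perinate WT array 5 (-0.54 to -0.44, adjusted p up to 0.0749). The test of the difference between KO and WT gave 0.46 ± 0.22, adjusted p = 0.3.

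Many organ genes were near background in KO cells and passed the filter on dim genes through WT arrays, so counts in the 2 genotypes cannot be set against each other. On all 3 adult KO arrays, 12 of 24 tested gut and stomach genes, 11 of 17 liver, 4 of 12 pancreas, 3 of 12 brain and 7 of 9 salivary, lacrimal and odorant carrier genes were near background, a level from which a decrease could hardly register. On all adult WT arrays 1 was, of the pancreas list. In the KO the gut and stomach list had 8 of 24 lower and 1 higher, liver 3 of 17 lower and 1 higher, pancreas 3 of 12 lower (1 without adult array 2 or perinate array 3) and 1 higher, brain 3 of 12 lower and salivary, lacrimal and odorant carriers 1 of 9 lower. In WT cells the lower counts were 13, 13, 6, 6 and 4. Over all genes 12.6% were lower and 13.4% higher in the KO, and 13.6% were lower in WT. Milk and seminal genes, 4 of 5 near background in adult KO cells, gave 0 in the KO and 3 lower in WT. Of 14 genes commonly cited as Aire-induced, 8 were near background in adult KO cells, and 1 was lower and 2 higher in the KO, with 6 lower in WT. With perinate KO array 1 alone the KO counts were 3 lower and 2 higher for gut and stomach, 2 and 1 for liver, 1 and 1 for pancreas and 2 and 0 for brain. The test of the difference itself, the age difference in KO minus that in WT, called 1.21% of all genes and 11 genes of these lists. Their sign was positive, and 8 of them were near background on all adult KO arrays and brighter in WT. For those of the 8 that were called lower in WT, the sign is largely fixed. Of the 11, 9 were called lower in WT, and the other two, Iapp and the gut peptide gene Cck (near background on all 6 KO arrays), were called higher in the KO and not called in WT.

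**Figure D4:**
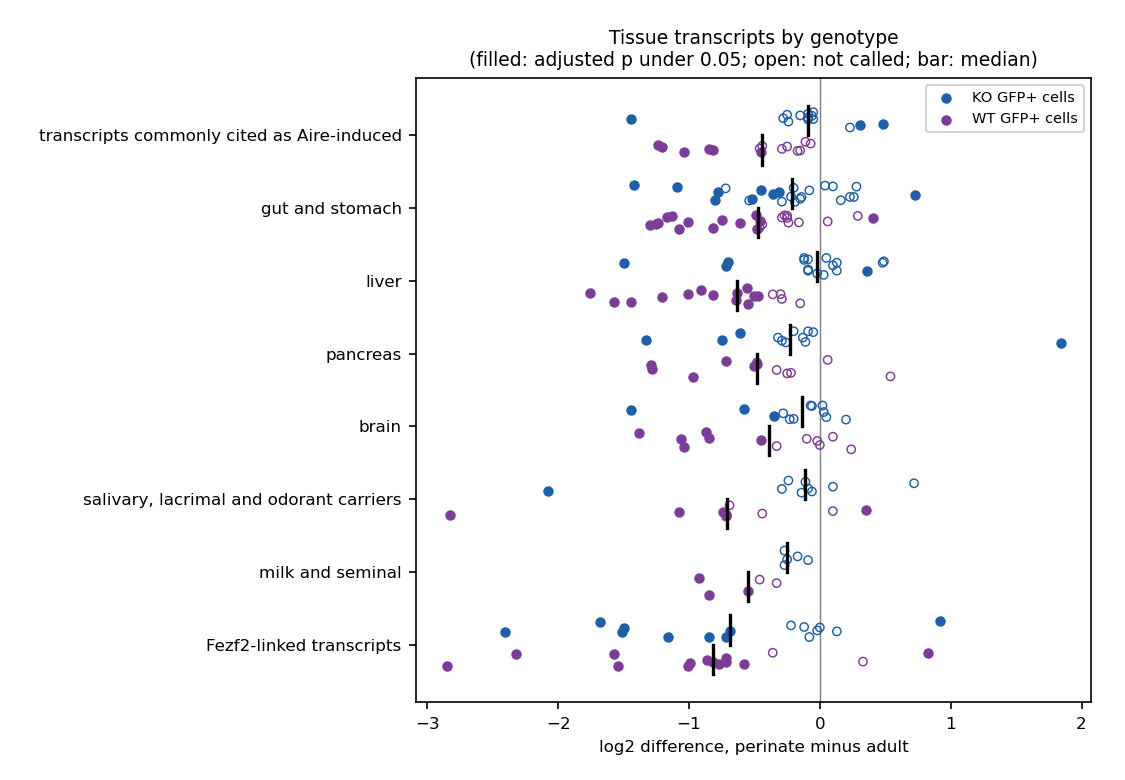
Log2 difference between perinate and adult GFP+ cells for tested members of 8 tissue lists, in KO (blue) and WT (purple) cells; filled points passed an adjusted p of 0.05 and bars are medians. The Fezf2-linked medians are -0.69 in the KO and -0.82 in WT, and many KO points near 0 in the gut, liver and salivary lists are genes near background on all adult KO arrays (12 of 24, 11 of 17 and 7 of 9).

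Single organ genes show the range. Tdo2, the hepatic tryptophan dioxygenase, read 69.4, 89 and 52.2 in the adult and 111, 81.7 and 98.5 in the perinate arrays in the KO, near background on most arrays, where a decrease could hardly register. With Aire present it was 656 ± 83.2 in adult and 201 ± 69.6 in perinate WT cells (mean ± SD, n = 3), with a difference of differences of 2.25 ± 0.32, adjusted p = 0.00462. Tff3, a gut trefoil peptide, read 144, 147 and 143 in the adult and 230.3, 142 and 149 in the perinate arrays and was not called (0.23 ± 0.17), while in WT its difference was -0.82 ± 0.17, adjusted p = 0.00335. The difference of differences was 1.05 ± 0.25, adjusted p = 0.0479, and its call was lost without any 1 of adult KO arrays 1, 2 and 3, perinate KO arrays 1 and 3, adult WT arrays 6, 7 and 8 or perinate WT arrays 5, 6 and 7 (0.83 to 1.14, adjusted p up to 0.112). Apoa4, an intestinal apolipoprotein, was lower in both, at 755, 756 and 479 in the adult and 272, 242 and 218 in the perinate arrays in the KO (log2 difference -1.42 ± 0.16, adjusted p = 1.62e-05, WT -1.17 ± 0.16, adjusted p = 0.000116). Lower in the KO were also the enterocyte protein Cdhr5 (-1.09 ± 0.15), the gut peptide Guca2b (-0.80 ± 0.17) and Trf, plasma transferrin (-0.70 ± 0.13). Chga, the granule protein of endocrine cells, read 436, 415 and 385 in the adult and 148, 183 and 161 in the perinate arrays (log2 difference -1.33 ± 0.16, adjusted p = 2.96e-05, WT -0.48 ± 0.16, adjusted p = 0.0453), and its WT call was lost without any 1 of adult WT arrays 6 and 8 or perinate WT arrays 5 and 6 (-0.51 to -0.29, adjusted p up to 0.199). Pcp4, a calmodulin-binding protein of neurons, read 172, 205 and 158 in the adult and 57.4, 71.5 and 67.8 in the perinate arrays, near background in perinates (log2 difference -1.44 ± 0.14, adjusted p = 5.16e-06, WT -1.04 ± 0.14, adjusted p = 0.000112). Bpifa1, an airway secretory protein, read 751, 476 and 236 in the adult and 135, 88.9 and 93.2 in the perinate arrays, with adults far apart (log2 difference -2.08 ± 0.44, adjusted p = 0.00255). Iapp, the islet hormone amylin, was higher, at 94.7, 98.5 and 72.1 in the adult and 362, 285 and 301 in the perinate arrays (log2 difference 1.84 ± 0.20, adjusted p = 1.15e-05), with adults near background. In WT it was brighter and not called (0.54 ± 0.20, adjusted p = 0.0658), and the difference of differences was 1.30 ± 0.29, adjusted p = 0.0399. That call was lost without any 1 of adult KO arrays 1, 2 and 3, perinate KO arrays 1, 2 and 3, adult WT arrays 6, 7 and 8 or perinate WT arrays 5 and 7 (1.16 to 1.39, adjusted p up to 0.0904).

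Set beside WT cells, the KO comparison shared much of its direction. WT cells had 3067 calls (22.2%), 1179 higher (8.52%) and 1888 lower (13.6%), of which 382 were at least 2-fold (2.76%). The higher share was 38.4% of WT calls, and quantile normalisation brought it to 49.4%. The means compared share no arrays between KO and WT, but both comparisons used 1 spread per gene, estimated over all 17 arrays. The 2 lists of calls are therefore not independent. Of genes called in both (1595), 1576 had the same direction, which is 43.8% of KO and 51.4% of WT calls, and 19 had opposite directions. Genes at least 2-fold higher in both numbered 57 (39.0% of the KO list, 70.4% of the WT list), and those at least 2-fold lower in both 135 (44.9% of each list). Across genes, which are not independent replicates, the log2 differences had r = 0.654 and rho = 0.568. Leading genes of both directions were called in WT too, with differences of 2.30 for Stmn2, 1.73 for Vcan, -2.83 for Ifi205 and -3.57 for Anxa10. The sterol list had 11 of 17 higher and 0 lower in WT and the imprinted list 9 of 15 and 0. The mitosis list had 4 of 24 higher, the replication list 8 of 25 and the histone list 2 of 12 higher and 3 lower. None of the tested members of these lists was called in the test of the KO against the WT difference, which called 1.21% of all genes. The median of that difference was 0.61 in the histone, 0.33 in the mitosis and 0.18 in the replication list. It was 0.19 in the sterol and 0.07 in the imprinted list, against 0.02 over all genes. The median SE for a single gene was 0.184.

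**Figure D5:**
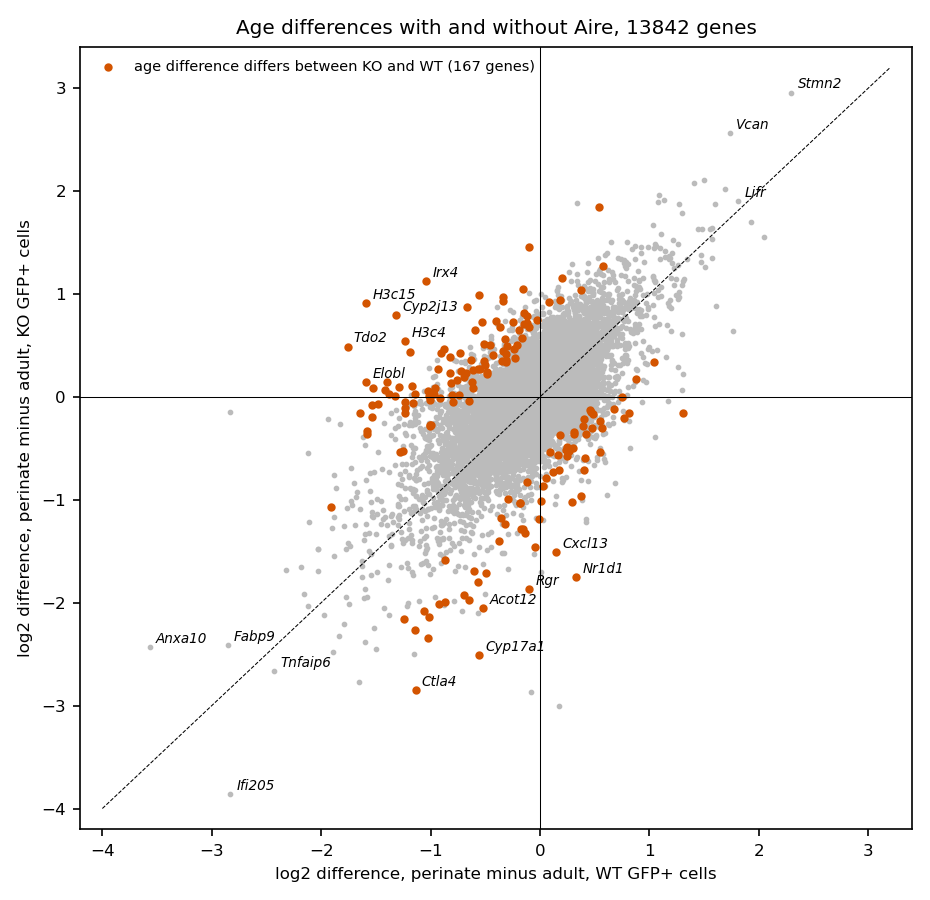
Log2 age difference in KO cells (y) against that in WT cells (x) for the 13842 tested genes; orange points are the 167 genes whose age difference differed between genotypes, and the dashed line marks equal differences. Most orange points are lower in perinates of 1 genotype and nearer 0 in the other, and the 2 unlabelled points near x = 0 at the bottom are Uty and Eif2s3y.

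The age difference itself differed between KO and WT for 167 genes (1.21%), 100 with a positive (0.722%) and 67 with a negative (0.484%) difference of differences; 75 of them were at least 2-fold (0.542%). Of the 100, 71 were lower in WT perinates, and 53 of those were not called in the KO, 28 of them near background on all adult KO arrays. Of the 67, 54 were called lower in KO perinates. The count was 52 to 101 when any 1 of adult KO arrays 1, 2 and 3, perinate KO arrays 2 and 3, adult WT arrays 6, 7 and 8 or perinate WT array 5 was left out, and 45 with perinate KO array 1 alone. Acot12, a hepatic acyl-CoA thioesterase, read 591, 511 and 447 in the adult and 123, 114 and 136 in the perinate arrays in the KO and 148 ± 22.1 in adult and 103 ± 6.81 in perinate WT cells (difference of differences -1.53 ± 0.19, adjusted p = 0.00231). Rgr, a retinal opsin, read 289, 293 and 199 in the adult and 49.4, 74.6 and 94.8 in the perinate arrays in the KO and 70 ± 9.54 in adult and 65 ± 5.29 in perinate WT cells (-1.76 ± 0.29, adjusted p = 0.00723). Cyp17a1, given above for the KO, was 450.1 ± 58.9 in adult and 305 ± 35.1 in perinate WT cells (-1.95 ± 0.27, adjusted p = 0.00462). Ctla4 was 159.9 ± 9.99 in adult and 74.5 ± 21.2 in perinate WT cells (-1.71 ± 0.33, adjusted p = 0.022), and its call was lost without any 1 of adult KO array 2, adult WT array 8 or perinate WT array 5 (-1.69 to -1.49, adjusted p up to 0.067). For all 4 the age gap was wider in the KO. Rgr was near background in WT cells of both ages, where a decrease could hardly register. The perinate WT means of Ctla4 and Acot12 were near background too, so the floor limits their WT decreases. In the other direction, Cyp2j13, a cytochrome P450, read 91.3, 81.7 and 76.8 in the adult and 148, 151 and 134 in the perinate arrays in the KO against 133 ± 8.18 in adult and 53.9 ± 9.1 in perinate WT cells (2.11 ± 0.21, adjusted p = 0.000238). The cardiac transcription factor Irx4 read 151, 154 and 115 in the adult and 222, 364 and 343 in the perinate arrays against 281 ± 12.7 in adult and 144 ± 63.6 in perinate WT cells (2.17 ± 0.32, adjusted p = 0.00542). Both were called higher in KO and lower in WT perinates. Cyp2j13 was near background in adult KO and perinate WT cells, so both of its differences are measured from the floor. With perinate KO array 1 alone the difference of differences of Irx4 was 1.72 (adjusted p = 0.0678).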

How the data were processed

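The deposited values are linear probe set intensities, made by the authors with Affymetrix Power Tools and RMA, per the submitters' processing notes. RMA corrects background, quantile-normalises and summarises probes as a rule; versions and settings: not given in the sources used here. Of 24922 probe sets, 21425 carried 1 gene symbol in the platform annotation, 1399 several and 2098 none; the last 2 kinds were left out. For 921 genes with several probe sets the one with the highest mean was used, which left 19752 genes. A gene was tested if its signal exceeded the 40th percentile of the array on at least 2 arrays, which left 13842. Intensities were set on the log2 scale, and 6 group means over all 17 arrays were fitted with limma 3.58.1 in R 4.3.3, with no covariate. A gene was called at a Benjamini-Hochberg adjusted p under 0.05 over all genes tested (two-sided). The procedure was tested on simulated data.

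Genes were named by rule: the 15 largest called differences each way with non-overlapping KO arrays and a higher group mean above the 40th percentile (without Y-linked genes and Xist), up to 5 called and 3 uncalled members of each list, Aire, G6pc2, and the 6 largest each way in the test of KO against WT. The members and the 47 gene lists were chosen with earlier results of these data known. The motifs TCACNCCAC and TTTGGCGC were added after the data were examined. Alternatives were other dim filters, centring, quantile normalisation, an offset, array weights, a trended variance prior, fewer groups in the fit, a replicate block and leaving out arrays. No columns were left unused (0). Precision is set by the number of arrays per group, and the median SE was 0.13 for the KO age difference. The labels give no pairing of adult and perinate KO arrays beyond the shared numbers.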

Additional observations from a re-analysis of the deposited data

Results flagged for a closer look

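The 12 genes below, the 6 largest each way among 167, stood out because their age difference in KO cells differed from that in WT cells by the interaction term of the limma model. Each value is the log2 age difference in KO minus that in WT, with its SE. Negative values, where the perinate level relative to adults was lower in the KO than in WT, were led by Nr1d1, the clock repressor Rev-erb alpha (-2.08 ± 0.43, adjusted p = 0.0286). It read 1239, 878 and 688 in the adult and 392, 231 and 216 in the perinate arrays in the KO and 688 ± 165 in adult and 853 ± 87.6 in perinate WT cells, and its call was lost without any 1 of adult KO arrays 1 and 2, perinate KO arrays 2 and 3, adult WT arrays 7 and 8 or perinate WT array 5 (-2.11 to -1.86, adjusted p up to 0.075). Cyp17a1 (-1.95 ± 0.27, adjusted p = 0.00462), Rgr (-1.76 ± 0.29, adjusted p = 0.00723) and Acot12 (-1.53 ± 0.19, adjusted p = 0.00231) kept theirs whichever single KO or WT GFP+ array was left out. Ctla4 (-1.71 ± 0.33, adjusted p = 0.022) lost its call without any 1 of adult KO array 2, adult WT array 8 or perinate WT array 5 (-1.69 to -1.49, adjusted p up to 0.067). Cxcl13, which was 2514 ± 115 in adult and 2787 ± 102 in perinate WT cells (-1.66 ± 0.38, adjusted p = 0.0446), lost its call without any 1 of adult KO arrays 1 and 2, perinate KO arrays 2 and 3, adult WT arrays 6, 7 and 8 or perinate WT arrays 5, 6 and 7 (-1.69 to -1.49, adjusted p up to 0.108).

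Positive values were led by the histone gene H3c15 (2.50 ± 0.49, adjusted p = 0.0228), at 26.7, 33.2 and 77.8 in the adult and 56, 89.9 and 90.8 in the perinate arrays in the KO, all near background, and 102 ± 28.5 in adult and 34.6 ± 11.4 in perinate WT cells. Its call was lost without any 1 of adult KO arrays 1 and 2, perinate KO arrays 2 and 3, adult WT arrays 7 and 8 or perinate WT array 5 (2.19 to 2.45, adjusted p up to 0.0703). A second histone gene, H3c4, which was not in the histone list (1.78 ± 0.40, adjusted p = 0.0446), lost its call without any 1 of adult KO arrays 1 and 2, perinate KO arrays 1, 2 and 3, adult WT arrays 6, 7 and 8 or perinate WT arrays 5 and 7 (1.48 to 1.91, adjusted p up to 0.103). Tdo2 (2.25 ± 0.32, adjusted p = 0.00462), Irx4 (2.17 ± 0.32, adjusted p = 0.00542), Cyp2j13 (2.11 ± 0.21, adjusted p = 0.000238) and Elobl, a gene related to elongin B (1.73 ± 0.29, adjusted p = 0.00701), kept theirs whichever single array was left out. Elobl read 54.9, 57.4 and 30.2 in the adult and 58.8, 45.9 and 47.6 in the perinate arrays in the KO, near background, against 467 ± 60.2 in adult and 154 ± 10.8 in perinate WT cells.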

How the results depend on the processing

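Among 182 called named genes, 3087 values under alternatives gave 2813 kept calls, 274 lost calls and 0 reversals. Every alternative kept 105 of them, and 29 of the 30 genes with the largest differences; Fabp9 lost its call with perinate KO array 1 alone. That setting lost 65 calls, leaving out adult array 3 or perinate array 1 lost 35 each, and other single KO arrays 24 to 26. With perinate KO array 1 alone, 1876 genes were called in KO cells, 828 higher and 1048 lower, with 250 at least 2-fold higher, and 45 in the test of KO against WT; fewer arrays entered. Leaving out 1 KO array gave 2563 to 3209 calls, 1120 to 1790 higher, 1265 to 1443 lower, and 416 to 490 at least 2-fold (111 to 209 higher, 278 to 334 lower). Without 1 WT array 2083 to 2768 WT genes were called, and without any 1 array 52 to 216 genes in the test of KO against WT. That last count was the least stable: 86 with a filter at the 60th percentile, where fewer genes were tested, 812 with array weights and 252 with only GFP+ arrays, for which the cause was not tested. With a replicate block the KO calls were 3324 (1688 higher, 1636 lower), the WT calls 2951 and the test of KO against WT 108, again untested for cause. With only the KO GFP+ arrays in the fit, 4042 genes were called in KO cells (2059 higher, 1983 lower). Correlations of same-numbered KO arrays, taken on deviations from the group means, were 0.05, 0.04 and 0.06, so the numbers were not taken to pair samples. The array's floor limits what can be seen for dim genes.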

Other observations

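Stress and clock transcripts were lower in perinate KO cells in part, where 26.0% of all genes were called and 12.6% were lower. Of 13 heat-shock chaperones 5 were lower and 0 higher (median -0.67). Dnajb1, a co-chaperone of Hsp70, read 1884, 1476 and 4183 in the adult and 594, 962 and 949 in the perinate arrays (log2 difference -1.47 ± 0.33, adjusted p = 0.00393). Hsp90aa1, an inducible chaperone, read 5161, 5809 and 9747 in the adult and 3447, 4754 and 4279 in the perinate arrays (log2 difference -0.69 ± 0.21, adjusted p = 0.0217). Adult array 3 was the highest array for both. Without it 1 chaperone was called, without perinate array 1 also 1, and without perinate array 3, 3. The call of Dnajb1 held without any single KO array, and that of Hsp90aa1 was lost without any 1 of adult array 3 or perinate array 1 (-0.56 to -0.41, adjusted p up to 0.126). In WT cells 6 of the 13 were lower. Of 14 clock genes 5 were lower and 0 higher, with 3 lower without adult array 1 and 2 without perinate array 1. Arntl, the activator Bmal, read 307, 371 and 312 in the adult and 218, 233 and 247 in the perinate arrays (log2 difference -0.50 ± 0.11, adjusted p = 0.0031). Dbp, an output factor of the clock, read 554, 487 and 433 in the adult and 265, 387 and 376 in the perinate arrays (log2 difference -0.53 ± 0.15, adjusted p = 0.0137), and lost its call without any 1 of adult array 1 or perinate array 1 (-0.44 to -0.36, adjusted p up to 0.0821). Of 14 glucocorticoid-responsive genes 4 were lower and 0 higher, about the 26.0% of all genes called in either direction. The lower count was 2 without adult array 3 or perinate array 2. Tsc22d3, the glucocorticoid-induced leucine zipper, read 564, 584 and 512 in the adult and 316, 306 and 338 in the perinate arrays (log2 difference -0.79 ± 0.12, adjusted p = 0.000222). Of 20 immediate-early genes 1, Klf6, was called lower, 5 were without perinate array 1, and 0 without any other single KO array.

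Of 14 tested muscle genes 4 were higher and 2 lower, where 26.0% of all genes were called. The higher count was 2 without any 1 of adult arrays 2 and 3 and perinate arrays 1, 2 and 3, and the lower count 1 without any 1 of adult arrays 1 and 3 and perinate arrays 1 and 2. With perinate array 1 alone 1 was higher and 1 lower. Titin, Ttn, read 192, 196 and 206 in the adult and 367, 372 and 361 in the perinate arrays (log2 difference 0.89 ± 0.15, adjusted p = 0.000407), with no overlap between ages. Desmin, Des, the intermediate filament of muscle, read 1185, 756 and 928 in the adult and 346, 441 and 475 in the perinate arrays (log2 difference -1.17 ± 0.15, adjusted p = 3.86e-05). Of 6 retina and lens genes 1, Rgr, was called, and of 4 testis genes tested 0 were called.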
